A study of Bos taurus with 8 samples.

Results

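Glucose exposure during cleavage was compared with control culture for 9 transcription factors of the trophectoderm, the outer epithelium of the blastocyst that forms the placenta: CDX2, GATA2, GATA3, TFAP2A, TFAP2C, TEAD4, ASCL2, ELF3 and DLX3. The members were taken as every array probe whose annotated gene symbol is one of these 9, which gave 14 of 43794 probes, and 13 of the 14 were bright enough to be tested. All 9 genes had at least 1 tested probe, among 13060 named genes tested on the array. Bovine embryos, from slaughterhouse ovaries of any dairy breed, were matured, fertilized and cultured in vitro. The glucose group was cultured in 5 mM glucose and the control group in 0.2 mM from day 0 to day 3, and both groups then shared the same standard medium until collection as blastocysts at 180 h after fertilization. Each sample is a pool of 10 whole blastocysts, with 4 pools per group, and the sources used here do not state whether the pools came from separate batches of ovaries, so p-values measure only the spread between these pools. A glucose pool and a control pool were hybridised together on 2-colour arrays, and each pair was hybridised again with the dyes exchanged, which gives 8 arrays and 4 pool pairs. Arrays of one number were taken as the same pair of pools, which is inferred from the data and the array numbers.

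Trophectoderm fate is set in the outer cells of the embryo. In the mouse, TEAD4 binds YAP1 or WWTR1 in the nuclei of outer cells, where Hippo signalling is low, and activates Cdx2 and Gata3. CDX2, a caudal-type homeobox factor, maintains the lineage and in the mouse represses Pou5f1. GATA2 and GATA3 are zinc-finger factors of trophoblast, and TFAP2A and TFAP2C are AP-2 factors that act with them in trophoblast gene programmes. In ruminants CDX2 and GATA factors also act on the interferon tau gene, whose product is the trophectoderm's signal of pregnancy. ASCL2 is a basic helix-loop-helix factor that is imprinted in the mouse and required there for the spongiotrophoblast. ELF3 is an epithelial ETS factor, and DLX3 is a homeobox factor that the mouse placenta requires.

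The array detected transcripts of all 9 genes, but at very different margins. A spot was called detected when its mean intensity exceeded the mean plus 2 SD of that array channel's negative control spots. TFAP2C, at its brightest probe, gave a spot intensity of 12093 at the lowest, 22340 at the median and 36136 at the highest over the 16 channels, and its median lay 158 times above the detection limit. GATA2 had a median of 6155, which was 45.7 times the limit, followed by TFAP2A at 11.8 times and DLX3 at 7.88 times. The other 5 genes lay close to the limit: ASCL2 at 2.17 times, GATA3 at 1.62, TEAD4 at 1.41, ELF3 at 1.28 and CDX2 at 1.08. These margins rank how measurable each probe was, not the abundance of different mRNAs. Of the 9 genes, 8 were detected in all 16 channels (88.9%, against 68.1% of the named genes tested). CDX2 was the exception, with detection in 5 of 8 glucose channels and 6 of 8 control channels. Among further probes, the second TFAP2A probe was detected in 5 of 16 channels, the second TEAD4 probe in 7 of 16 and the third TFAP2A probe in 0 of 16, so the third was not tested. The offset added in the background correction compresses ratios of dim probes towards 0.

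**Figure D1:**
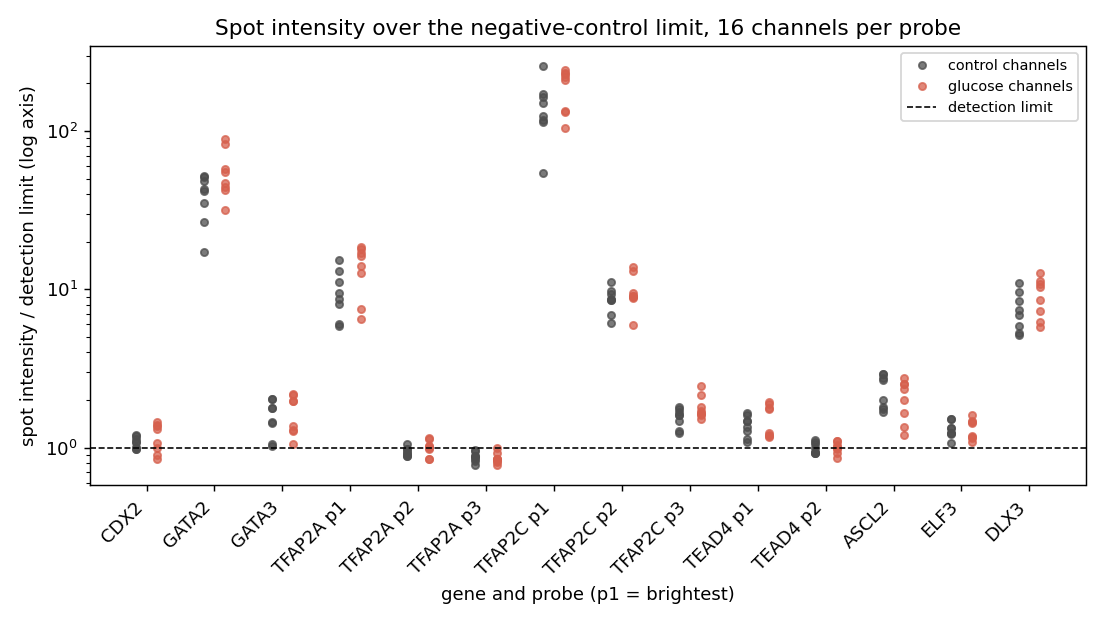
Spot intensity over the detection limit of its array channel (log axis) for all 14 probes of the 9 genes (p1 is the brightest of a gene), with 1 point per channel, 8 glucose and 8 control. The brightest TFAP2C probe and GATA2 stand far above the limit, and CDX2 straddles it.

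No trophectoderm factor passed the adjusted threshold between glucose and control blastocysts. Over the whole array 0 of 34665 probes passed (0%, limma with Benjamini-Hochberg adjustment at 0.05), and 832 had an unadjusted p under 0.05 (2.4% of those tested). The limma adjusted p was 0.977 for 7 of the 9 genes, 0.988 for GATA3 and 0.997 for DLX3. The median log2(glucose/control) of the 9 genes was 0.04, with 5 above 0 and 4 below, and the median over all named genes was 0.01, with 52.1% above 0. None of the 9 genes had the same sign in all 4 pool pairs, which 9.64% of all named genes had. In bulk embryos, fewer trophectoderm cells and less RNA per cell cannot be told apart.

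**Figure D2:**
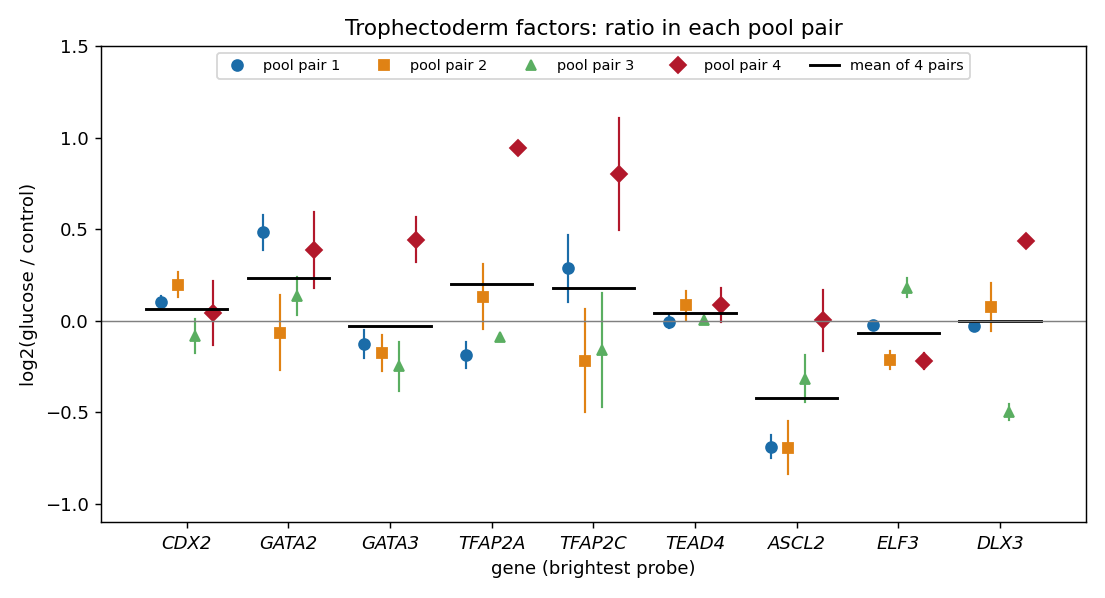
Log2(glucose/control) of the brightest probe of each gene, with 1 point per pool pair (mean of both dye orientations), a thin vertical line from the lower to the higher of its 2 arrays, and a bar for the mean of the 4 pairs. ASCL2 lies near -0.69 in pairs 1 and 2, and TFAP2A and TFAP2C reach 0.94 and 0.80 in pair 4.

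ASCL2 differed most from 0 among the 9 genes, and it was lower in glucose in pool pairs 1, 2 and 3 but not in 4. Its log2 ratio was -0.69 in pool pair 1, -0.69 in pair 2, -0.32 in pair 3 and 0.00 in pair 4, a mean of -0.42 ± 0.33 (SD, n = 4), which is 1.34-fold lower in glucose. On the single arrays, 7 of 8 ratios were below 0. Pair 1 gave -0.75 with glucose in Cy3 and -0.63 with glucose in Cy5, so the size repeated under both dyes. Pair 2 gave -0.84 and -0.55 and pair 3 gave -0.45 and -0.19 in the same order. Pair 4 gave -0.17 and 0.17, on either side of 0. The 95% interval of the fold ran from 0.583 to 0.954 (limma, unadjusted p = 0.0281, adjusted p = 0.977), so the difference did not survive adjustment. In all, 83 named genes had an unadjusted p under 0.05 with a lower level in glucose (0.636%). ASCL2 was the only member at least 1.5-fold lower in pair 1 and in pair 2, where 0.528% and 0.406% of all named genes were.

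The pool levels of ASCL2 overlapped between the groups in spite of these ratios. Its normalised log2 level was 7.85, 8.11, 7.40 and 8.45 in glucose pools 1 to 4, and 8.53, 8.81, 7.72 and 8.44 in control pools 1 to 4. Each of the first 3 glucose pools lay below the control pool on its own arrays. Glucose pool 4, however, lay above 2 of the 4 control pools. The levels also differed between pool pairs, with an SD of 0.42 for the mean level of a pair, more than the SD of 0.33 for the ratio.

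TEAD4, the most upstream of these factors in the mouse, had the narrowest spread of the 9 genes. Its log2 ratios were -0.00, 0.08, 0.00 and 0.09 in pool pairs 1 to 4, a mean of 0.04 ± 0.05 (SD, n = 4). The 95% interval of the fold ran from 0.945 to 1.12, for a probe whose median intensity was only 1.41 times the limit. Its second, dimmer probe gave a mean of 0.01 ± 0.07. The TEAD4 level moved between pool pairs more than between groups, at 7.73, 7.77, 7.33 and 7.22 in glucose and 7.74, 7.68, 7.33 and 7.13 in control. Both pools of a pair thus stood at nearly the same level, while pairs 1 and 2 stood above pairs 3 and 4.

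CDX2, which lies downstream of TEAD4 in the mouse, had log2 ratios of 0.10, 0.20, -0.08 and 0.04, a mean of 0.07 ± 0.12 (SD, n = 4). Its interval ran from -0.10 to 0.23 on the log2 scale. With 5 of 8 glucose channels and 6 of 8 control channels detected, this ratio describes a signal at the limit, and a difference in CDX2 may not have been measurable at this brightness.

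GATA3 and GATA2 did not show a shared direction. GATA3 had log2 ratios of -0.13, -0.18 and -0.25 in pool pairs 1 to 3 and 0.44 in pair 4, a mean of -0.03 ± 0.32 (SD, n = 4). Pair 4 alone stood above 0, on both of its arrays, at 0.32 and 0.56. Without pair 4 the mean was -0.18. GATA2 had log2 ratios of 0.48, -0.06, 0.14 and 0.38, a mean of 0.23 ± 0.25, and 7 of its 8 arrays were above 0. The 95% interval of the GATA2 fold was 0.973 to 1.42 (limma, unadjusted p = 0.0786, adjusted p = 0.977). At 45.7 times the limit, the GATA2 spread is that of a bright probe.

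GATA2 pool levels on the log2 scale were 13.19, 12.89, 12.34 and 12.60 in glucose and 12.71, 12.95, 12.20 and 12.21 in control. For GATA3 they were 7.96, 7.84, 7.20 and 7.46 in glucose and 8.09, 8.02, 7.44 and 7.02 in control. Both genes stood higher in pairs 1 and 2 than in pairs 3 and 4, in both groups.

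The AP-2 factors carried the widest ratios, and their means were above 0 through pool pair 4 alone. TFAP2A, at its brightest probe, had log2 ratios of -0.19, 0.13, -0.09 and 0.94, a mean of 0.20 ± 0.51 (SD, n = 4), with pair 4 at 0.97 and 0.91 on its 2 arrays. TFAP2C, at its brightest probe, had 0.29, -0.22, -0.16 and 0.80, a mean of 0.18 ± 0.47, with pair 4 at 0.49 and 1.11. Without pool pair 4 the means turned to -0.05 for TFAP2A and -0.03 for TFAP2C. The 95% intervals were -0.33 to 0.73 for TFAP2A and -0.31 to 0.67 for TFAP2C, so differences of either sign lie within both.

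The levels behind these ratios separate pool pair 4 as well. TFAP2C stood at 14.59, 14.28, 14.36 and 14.79 in glucose pools and at 14.31, 14.50, 14.52 and 13.99 in control pools, on the log2 scale. Glucose pool 4 was thus the highest of the 8 and control pool 4 the lowest. The TFAP2A probe stood at 10.79, 10.74, 9.91 and 11.29 in glucose and 10.98, 10.61, 10.00 and 10.35 in control. There glucose pool 4 was the highest, while control pool 4 lay within the range of the other control pools.

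The 3 TFAP2C probes, each detected in all 16 channels, disagreed in pool pair 4. The second probe had log2 ratios of 0.12, 0.03, 0.12 and -0.81, a mean of -0.14 ± 0.45 (SD, n = 4), and its pair 4 arrays gave -0.66 and -0.97. The third probe had 0.03, 0.10, -0.00 and 0.24, a mean of 0.09 ± 0.11. Brightest minus second probe came to 0.17, -0.25, -0.28 and 1.61 in pool pairs 1 to 4, so both probes lay within 0.28 of each other in the first 3 pairs only. Of 1804 genes with at least 2 probes detected in all 16 channels, 70 had probes at least 1.5-fold from 0 on opposite sides in pool pair 4 (3.88%). The annotation gives no position within the gene for these probes, so which transcript or end each one reads is not known here. The direction of TFAP2C in pool pair 4 therefore depends on the probe. For TFAP2A, the second probe, detected in 5 of 16 channels, had 0.09, 0.30, -0.04 and -0.01, and so did not show the pair 4 ratio of the brightest probe.

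**Figure D3:**
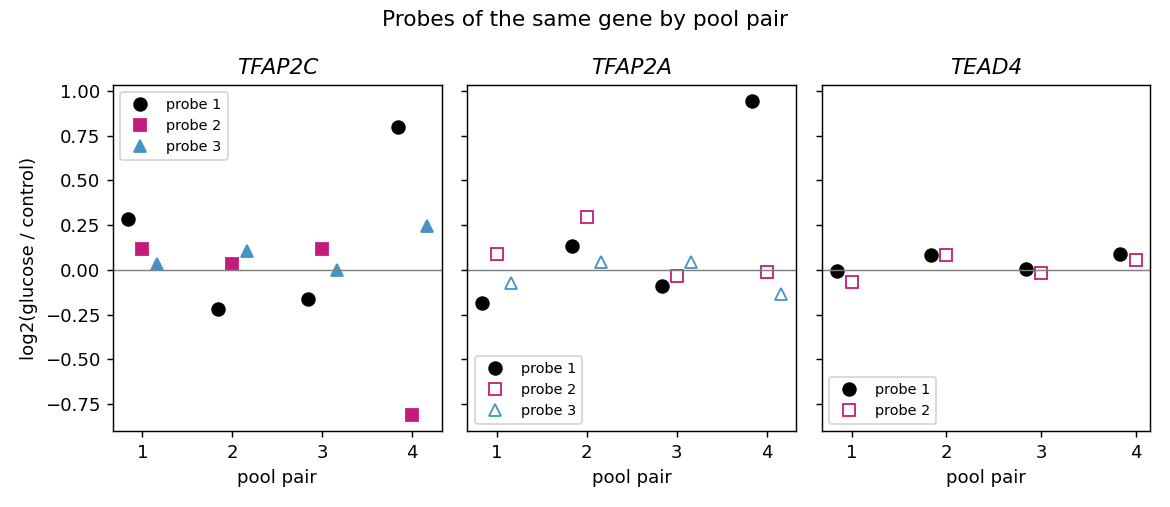
Log2(glucose/control) of every probe of TFAP2C, TFAP2A and TEAD4 in the 4 pool pairs (numbers are names, not an order); open markers are probes not detected in all 16 channels. In pool pair 4 the brightest TFAP2C probe is at 0.80 and the second at -0.81.

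ELF3 and DLX3 did not differ between the groups beyond the spread of the pools. ELF3 had log2 ratios of -0.02, -0.22, 0.18 and -0.22, a mean of -0.07 ± 0.19 (SD, n = 4), with an interval of -0.29 to 0.15. DLX3 had -0.03, 0.08, -0.50 and 0.44, a mean of -0.00 ± 0.39, with an interval of -0.41 to 0.40. The opposite DLX3 ratios of pairs 3 and 4 each repeated on both arrays, at -0.46 and -0.54 in pair 3 and at 0.45 and 0.43 in pair 4. They were therefore larger than the difference between dye orientations, and they cancelled in the mean. DLX3 levels were 10.05, 10.06, 9.68 and 10.66 in glucose and 10.08, 9.98, 10.18 and 10.22 in control, so glucose pool 3 was the lowest and glucose pool 4 the highest of the 8.

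Read by pool pair at the brightest probes, the 9 genes were more often above 0 in pool pair 4, by a margin that depended on the TFAP2C probe and on the array. In pairs 1, 2 and 3 the numbers above 0 were 3, 4 and 3, with medians of -0.02, -0.06 and -0.09. In pair 4, 8 of the 9 were above 0, where 49.6% of all named genes were, and the median was 0.38. With the second TFAP2C probe in place of the brightest, 7 were above 0 and the median was 0.09, and with the third probe the median was 0.24. On both arrays of the pair 5 of the 9 were above 0, while CDX2, TEAD4 and ASCL2 lay on either side of 0. The median was 0.18 on array set 047 alone, which holds 1 dye orientation of the pair and so keeps the dye effect. ELF3 was the member below 0 in pair 4, and ASCL2 counts as above 0 at 0.00. By the mean of both arrays, TFAP2A and the brightest TFAP2C probe were at least 1.5-fold higher in glucose in pair 4, as were 12.2% of all named genes. TFAP2A alone was so on each array, and the second TFAP2C probe was at -0.81. Without these AP-2 genes the median of the other 7 was 0.09. Pool pair 4 had the widest ratios on the whole array, with an SD across named genes of 0.48, against 0.23, 0.22 and 0.28 in pairs 1 to 3. The part of that wider spread in the members' values was not tested.

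**Figure D4:**
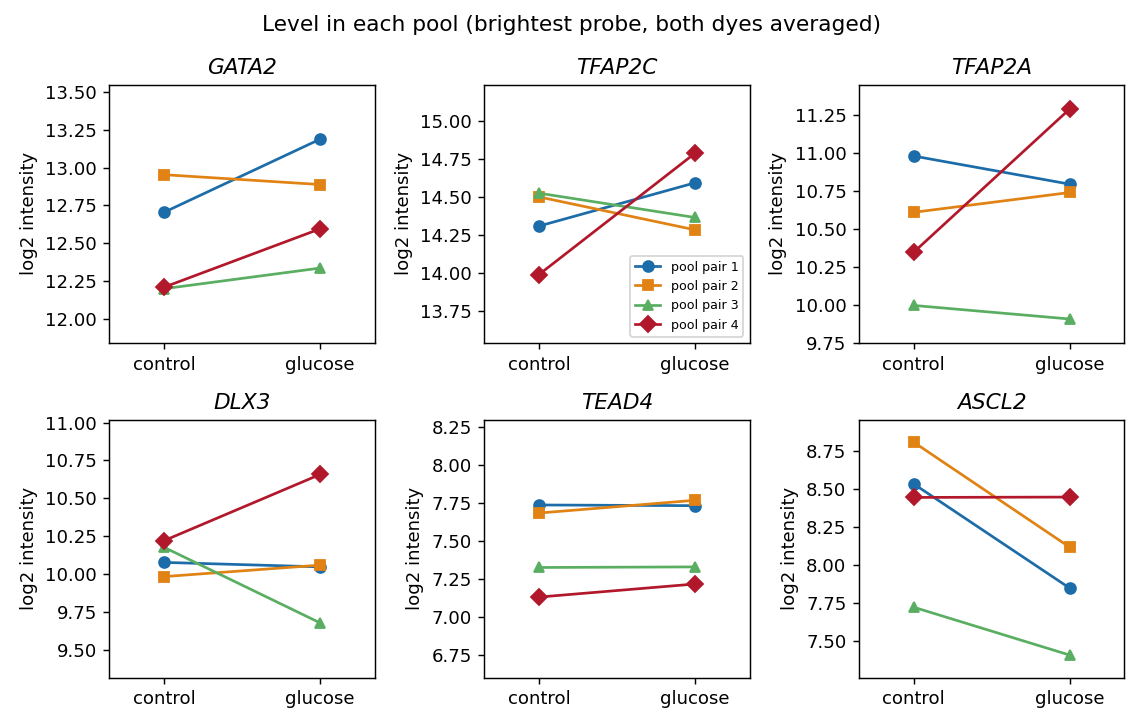
Normalised log2 level of the brightest probe of 6 of the 9 genes in the 4 control and 4 glucose pools, with lines joining the pools of a pair and an axis range of its own per gene. The groups overlap for every gene shown, and TFAP2A, TFAP2C and DLX3 have their highest level in glucose pool 4.

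Levels of the factors differed between pool pairs as well as between the pools of a pair. The glucose and control levels overlapped for all 9 genes, and 92 of the named genes (0.704%) had levels that did not overlap. The SD between pool pairs of the pair's mean level had a median of 0.28 over the 9 genes and 0.14 over all named genes. The SD of the ratio had a median of 0.32 over the 9 genes and 0.19 over all. TFAP2C was the extreme case, with an SD of 0.03 for the pair level and 0.47 for the ratio, and TEAD4 its opposite, with 0.28 and 0.05. Pools of one pair share their arrays, so a pair's level includes any difference between arrays.

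Similarity of pattern was measured by Pearson's r over the 8 pool levels, as a description, among 10836 named genes detected in at least 6 of 8 channels of each group. Between members, GATA3 and TEAD4 were most alike (r = 0.927), then GATA2 with GATA3 (0.840) and with TEAD4 (0.835). The 8 levels come from 4 pairs whose pools share arrays, so r also takes in differences between arrays. All 3 genes stood higher in pairs 1 and 2 than in pairs 3 and 4. GATA3 and TEAD4 also lay near the detection limit, at 1.62 and 1.41 times. TFAP2A and TFAP2C reached 0.389, TFAP2A and DLX3 0.631, and TEAD4 with DLX3 was lowest at -0.379. The genes of highest r were KCTD15 (0.965) and TRMU (0.962) for GATA2, and CRBN (0.996) and PDXP (0.993) for GATA3. TEAD4 came closest to MAPK1IP1L (0.997) and USP22 (0.994), and ELF3 to MSTO1 (0.986) and DUS2L (0.974). For TFAP2A they were DHRS1 (0.975) and TMEM171 (0.957), and for TFAP2C C11H9ORF78 (0.976) and SQSTM1 (0.959). ASCL2 was most like LOC786798 (0.945) and LOC785480 (0.933), and DLX3 most like ORMDL2 (0.945) and FBP1 (0.942). TEAD4 and GATA3 shared their pattern with many genes, 701 and 662 at r over 0.9, while ASCL2 had 9, DLX3 11 and TFAP2A 13. CDX2 was detected in too few channels to enter.

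Other genes of the same regulatory setting were read from lists and likewise gave no call. Of 25 tested other trophoblast transcription factors, 0 passed the limma adjusted threshold, 15 were above 0 and 10 below, and the median was 0.02. PPARG, a nuclear receptor needed for placental development in the mouse, had the lowest unadjusted p of this list, at 0.41 ± 0.40 (SD, n = 4), with TBX3 at 0.28 ± 0.27 and OVOL1 at 0.25 ± 0.43 next. For TBX3, 1 of 3 tested probes lay on the other side of 0, and OVOL1 was detected in 8 of 8 glucose and 6 of 8 control channels. Among 15 tested paralogs of the members 0 passed, 5 were above 0 and 10 below, and the median was -0.04, with TFAP2D at 0.28 ± 0.36, GATA1 at -0.08 ± 0.10 and GATA4, a primitive endoderm factor, at 0.23 ± 0.46. TFAP2D was detected in 8 of 8 glucose and 5 of 8 control channels, and GATA1 in 2 and 3. DLX4 and ELF5 are on both the paralog list and that of other trophoblast factors. Of 21 tested genes listed for the Hippo pathway, which acts upstream of TEAD4, 0 passed, 9 were above 0 and 12 below, and the median was -0.05. This list is not limited to genes upstream of TEAD4. It also holds targets such as ANKRD1, and TEAD1, TEAD2 and TEAD3, which are counted among the paralogs too. ANKRD1, a target of YAP1 and TEAD factors, was at 0.61 ± 0.63, the Hippo kinase LATS2 at -0.18 ± 0.16 and FRMD6, an upstream component of the pathway, at 0.28 ± 0.41, with 1 of its 2 tested probes on the other side of 0.

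Trophectoderm products, the genes that mark the finished epithelium, were also without a call. Of 33 tested, 0 passed the limma adjusted threshold, 21 were above 0 and 12 below, and the median was 0.06. The lowest unadjusted p values belonged to BMP4, a growth factor ligand, at 0.35 ± 0.23 (SD, n = 4), and to TKDP4, a trophoblast Kunitz protein, at 0.28 ± 0.21, whose other tested probe lay on the opposite side of 0. BMP4 was detected in 7 glucose and 6 control channels, and TKDP4 in 6 and 4. CYP19A1, the aromatase that makes oestrogens, was at -0.22 ± 0.33. Interferon tau (IFNT), named after its values were seen as a target of GATA and CDX2 factors, had log2 ratios of 0.81, 0.88, -1.74 and 0.56 in pool pairs 1 to 4. CDX2, near the detection limit, had the sign of IFNT in all 4 pairs by the mean of both arrays. Its single arrays lay on either side of 0 in pair 3 (-0.18 and 0.0075) and in pair 4 (-0.13 and 0.22). In pair 3 both glucose channels of CDX2 were below the detection limit (0.850 and 0.998 times). In pair 3 and in pair 4 the CDX2 value above 0 was the one with glucose in Cy5. The CDX2 sign in these pairs thus depends on the array and its dye orientation. GATA2 had the sign of IFNT in pairs 1 and 4, and GATA3 and ASCL2 in pairs 3 and 4. TEAD4 had it in pairs 2 and 4, TFAP2A and DLX3 in pairs 2, 3 and 4, the brightest TFAP2C probe in pairs 1, 3 and 4, and ELF3 in no pair. The share of all named genes with the sign of IFNT in all 4 pairs was not counted. These signs are given as a description, without a test.

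Markers of other cells were read beside these values, because each pool holds whole blastocysts. By pool pair, the medians of the 33 trophectoderm products were 0.05, 0.11, -0.17 and 0.26. Those of 21 inner cell mass markers were 0.04, 0.15, 0.04 and 0.06, and those of 21 primitive endoderm markers were 0.02, 0.15, 0.14 and -0.25. Of the mean ratios, 15 inner cell mass markers were above 0 and 6 below, and 12 primitive endoderm markers were above 0 and 9 below. POU5F1, the pluripotency factor that bovine trophectoderm keeps longer than mouse trophectoderm does, was at 0.02 ± 0.08 (SD, n = 4) and was detected in all channels of both groups. SALL4 at 0.19 ± 0.08, SPP1 at 0.47 ± 0.34 and DPPA2 at 0.15 ± 0.13 had the lowest unadjusted p of the inner cell mass list, and LAMA1 at 0.45 ± 0.15, FOXA2 at 0.24 ± 0.22 and BMP2 at 0.65 ± 1.04 of the primitive endoderm list. SALL4 was detected in 6 glucose and 2 control channels, SPP1 in 6 and 4, and FOXA2 in 7 and 3. The ratios of SALL4, SPP1 and FOXA2 thus include channels below the detection limit. In pool pair 4, trophectoderm products had the highest median of these lists and primitive endoderm markers the lowest. Genes of each list went both ways there. Trophectoderm products ran from -1.27 (KRT8) to 2.60 (PTGS2), with KRT19 at -0.46 and KRT18 at 0.62. Primitive endoderm markers ran from -0.93 (LAMC1) to 0.66 (LAMA1). DAB2, at -0.60 in pair 4, is on both lists. The summed signal of the trophectoderm products in pair 4 was 293854 in glucose and 254760 in control, with glucose pools from 235593 to 299906 and control pools from 254760 to 297352. That of the primitive endoderm markers in pair 4 was 43832.9 in glucose and 66572.2 in control, the lowest of the glucose pools and the highest of the control pools. Their part in the factors' ratios was not tested.

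Mesenchymal markers followed other pool pairs than the factors did. Over 15 tested genes their medians were 0.62, -0.04, 0.78 and -0.11 in pool pairs 1 to 4, with LUM, a matrix proteoglycan, at 1.91 ± 1.97 (SD, n = 4) and VIM, an intermediate filament protein, at 1.32 ± 1.45. DCN was at 0.57 ± 0.61 and was detected in 5 glucose and 3 control channels. In pair 4 the median of this list was thus near 0, with LUM at 1.53, while the median of the factors was 0.38 at their brightest probes. In pairs 1 and 3 the medians of the factors were -0.02 and -0.09. The 18 tested cumulus and granulosa markers had medians of 0.04, 0.07, 0.13 and -0.08, with CYP11A1 at -0.26 ± 0.23 and FSHR at 0.14 ± 0.17. VIM is on this list as well as the mesenchymal one, and is also among its 3 genes of lowest unadjusted p. CYP19A1, PTGS2 and HSD3B1 are on this list and among the trophectoderm products. The 6 tested blood cell markers had a median of 0.00, with CD68 at 0.21 ± 0.41, CD14 at -0.06 ± 0.06 and HBA at 0.08 ± 0.27. CD14 was detected in 4 glucose and 6 control channels. None of these lists held a gene past the limma adjusted threshold.

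**Figure D5:**
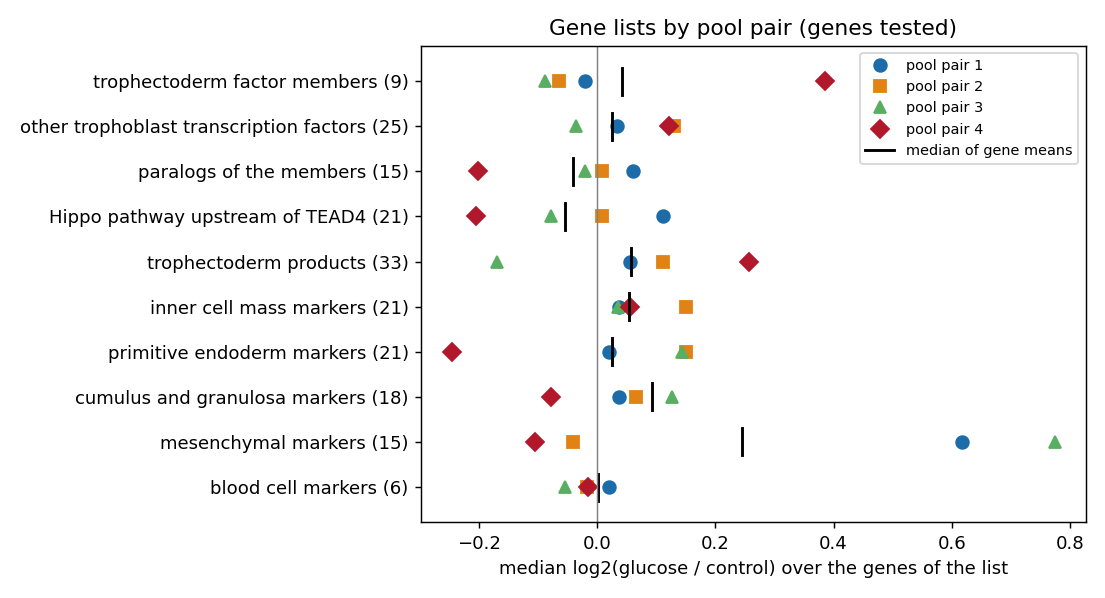
Median log2(glucose/control) of each gene list in each of the 4 pool pairs, 1 point per pool pair, with the median of the gene means as a bar and the number of genes tested in brackets. The trophectoderm factors, at their brightest probes, reach 0.38 in pool pair 4 (0.09 with the second TFAP2C probe), and the mesenchymal markers reach 0.62 and 0.78 in pool pairs 1 and 3.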

How the data were processed

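RNA from pools of 10 blastocysts was amplified with T7 RNA polymerase and labelled with Cy3 or Cy5, per the labels' protocols. The deposited scanner tables give spot and background intensity per channel, not normalized, per the file headers. The deposited series table holds a score whose unit the authors do not state. Set against the scanner values (r of 0.933 to 0.996), it was read as log2 glucose signal over log2 control signal, with medians of 0.9981 to 1. This reading and its centring are inferred, its normalization is unknown, and it served only as an alternative.

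Mean intensities were corrected by normexp (offset 50), normalized by loess within arrays (control spots at weight 0), and expressed as log2(glucose/control). The 2 arrays of a number were averaged. After removal of the dye effect, same-numbered arrays correlated at 0.723, 0.767, 0.842 and 0.908 over probes, and no array exceeded 0.213 with another number. With the dye effect kept, the same correlations were -0.045, -0.167, 0.149 and 0.551 for pairs 1 to 4. Single-array ratios thus carry a dye effect that the mean of a pair is meant to cancel. Pool levels were loess and Aquantile values averaged over both dyes. Testing required detection, in either channel, on at least 4 of 8 arrays. The limit used 153 negative control spots per array, of which 25 over the 16 channels lay more than 5 scaled MADs from the median and were left out. Between 69.9% and 82.3% of probes were detected per array. The number of arrays limits the precision.

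The test was limma 3.58.1 in R 4.3.3 (lmFit, eBayes, 4 pool pairs against 0, two-sided), adjusted over all 34665 tested probes. Each gene is given at its brightest probe. The fit was tested on simulated independent normal values, with SDs drawn from these data and 200 probes changed. It recovered 36% of the 1.5-fold and 62% of the 2-fold changes, with 10 false calls. Changes of this size could therefore be missed. Probe names come from the array annotation, in which 22004 probes are unnamed here. All 9 members match current RefSeq symbols (ARS-UCD2.0).

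The members and the 10 gene lists were chosen with earlier results of these data known. All members are named, with the 3 genes of lowest unadjusted p of each list and the 2 genes of highest r to each member. IFNT and POU5F1 were singled out after their values were seen. Alternatives covered the background correction, normalization, filters, probe choice (for TFAP2C also the second and the third probe, added after seeing the data), array sets, array weights, a replicate block and leaving out each pool pair.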

Additional observations from a re-analysis of the deposited data

Results flagged for a closer look

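Among 49 groups of 4 values examined for a value far from the other 3, 2 stood out, both through pool pair 4. Chance gives about 5% of groups, so this number is no more than chance gives. The log2(glucose/control) of the second TFAP2C probe was -0.81 in pool pair 4 and between 0.03 and 0.12 in the other 3 pairs. The median ratio over the 9 factors was 0.38 in pool pair 4 and between -0.09 and -0.02 in the other 3 pairs. This median rests on the brightest TFAP2C probe: it was 0.09 with the second probe, 0.24 with the third, and 0.09 without TFAP2A and TFAP2C. Over 15 alternatives the median in pool pair 4 ran from 0.077 to 0.43. Brightest minus second TFAP2C probe ran from 1.15 to 2.08 over 12 alternatives.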

How the results depend on the processing

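Over 21 alternatives, 0 probes and 0 of the 9 factors passed the limma adjusted threshold. ASCL2 ran from -0.58 to -0.33, GATA2 from 0.15 to 0.36 and ELF3 from -0.15 to -0.02, without a change of sign. With all 8 arrays fitted with a dye term, ASCL2 was -0.42 with a replicate block and without one. Its lowest limma adjusted p, 0.428, came from the fit without a block, which counts the 2 arrays of a pool pair as separate samples. With the block its limma adjusted p was 0.999, and the block of arrays by pool pair changed no call. DLX3 changed sign to 0.0079 without background subtraction, to 0.0011 with median spot intensity, to 0.032 with median centring and to 0.011 on array set 056 alone. Median spot intensity also turned CDX2 to -0.023 and TEAD4 to -0.0068, array set 056 turned TEAD4 to -0.0049, and array weights turned TFAP2A to -0.041. Leaving out each pool pair gave GATA3 between -0.18 and 0.047, DLX3 between -0.15 and 0.16, TFAP2A between -0.048 and 0.33 and TFAP2C between -0.031 and 0.31, and for TFAP2A and TFAP2C only the value without replicate 4 was below 0. The count of factors with the same sign in all pairs was 0 as reported. It became 1 with offset 16, without background subtraction and with the deposited series table (ASCL2 each time). On array set 047 the count was 2 (GATA2 and ASCL2), and on array set 056 it was 1 (CDX2). Each array set holds 1 dye orientation of a pool pair, so values from 1 set alone keep the dye effect. When a pool pair was left out, the count was 1 to 2. The median over the 9 factors was -0.0039 with the second TFAP2C probe, -0.0068 with median spot intensity, -0.033 with array weights and -0.031 without replicate 4. TFAP2C was -0.14 at the second probe and 0.09 at the third, alternatives chosen after seeing the data, and the median over the 9 factors in pool pair 4 was then 0.09 and 0.24, and 0.077 with the mean over the tested probes of a gene. CDX2 gave no value when detection in both channels of all 8 arrays was required. The cause of these changes was not tested, and 5 of the 9 probes lie within 2.17 times the detection limit.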
